A study of Mus musculus with 4 samples.

Results

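The probes described here are those whose signal was at least 4-fold dimmer in the embryonic stem cell line R1 than on every other array of the study. They were chosen by measured values: a member has a detection score of at least 0.95 on all 5 arrays other than that of R1, and a bead intensity in R1 of at most 0.25 times the lowest intensity on those 5. The rule left some target names out in advance, which removed 1 further probe. It found 61 of the 17653 probes detected on the 5 arrays (0.346%), and 61 of the 45281 probes on the array in all. Without AFF204#21 among the reference arrays the same rule gave 110 probes. These include all 61 members by construction, since leaving out a reference array can only add probes. They belong to 59 target names, since Apoa2 and Twistnb each had 2 member probes. A target name is the file's name for a gene or transcript, and 52 of the 59 matched a current mouse gene symbol, 35 directly and 17 through a unique synonym.

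The study measured RNA of 4 mouse embryonic stem cell samples on Illumina MouseWG-6 v2 arrays, and mouse embryonic fibroblasts served as feeders in every culture. The samples titled 2i-RFP+ and 2i-RFP- were C57/B6 lines at passage 5 that had been derived with 2i, usually a pair of kinase inhibitors against MEK and GSK3, and were then kept without it. AFF204#21 was a further C57/B6 line, taken at passage 11, while R1 is of strain 129 and was taken at passage 26. Both came from standard derivation, also without 2i in culture. The first 2 samples were measured on 2 arrays each, AFF204#21 and R1 on 1 array each. R1 was the only sample of its strain and had the highest passage number, so strain, passage and line cannot be told apart, and with 1 array of R1 there is no replicate of it and no test.

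Each probe on such an array is a synthetic oligonucleotide carried by beads, and its signal depends both on how much of the transcript is present and on how well the labelled copy pairs with the probe. Probes were designed from reference mouse transcripts, which come largely from C57BL/6, so a 129 sample can differ from them at single bases or in which exons it joins. A low signal from 1 probe can therefore go with less RNA or with a transcript that pairs poorly with that probe. Other probes of the same gene, which pair with other stretches of the transcript, are read beside it below. Probe sequences and a 129 genome were not used here, so whether a base difference lies under any of these probes was not tested.

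All 4 samples carried the markers of embryonic stem cells. All 10 genes of a list of core pluripotency factors were detected on the 5 arrays, and also in R1 on their brightest probe. The signal of Pou5f1 was 10218.5, 9991, 8824 and 10037 in 2i-RFP+, 2i-RFP-, AFF204#21 and R1. Naive pluripotency genes were less even. Their 14 brightest probes summed to 59104, 60825, 58160 and 77082 in that order. Zfp42 was highest in R1 (751.75, 857.6, 655.7 and 7193) and Dppa3 lowest there (4930, 4980, 1970 and 584.8). Of 19 feeder fibroblast markers 18 were detected. Their summed signal, with 1 probe per gene, was 53599, 45139, 49056 and 61057 in the same order, so it was highest in R1. No member lies in the feeder list, and the part of feeder cells in the members' values was not tested. In RNA from a whole culture, fewer cells of a type and less RNA per cell cannot be told apart.

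The median member was 6.29-fold dimmer in R1 than on the lowest other array, and the range ran from 4.03-fold to 89.4-fold. Of the 61 members, 13 were at least 10-fold dimmer and 21 were under 5-fold. On the R1 array 14 members fell below the detection score and 47 were still detected. The members were bright probes, with a median intensity of 1306 on the other arrays against 348.5 over all probes detected there. The rule favours this. The typical undetected probe read 47.5 on R1, so only a probe with a signal near 190.0 or above can show a 4-fold drop, and 6974 of the 17653 probes lay under that level. The bead error within the R1 array was small beside these differences, with a median standard error of 5.35% of the member's signal and a highest one of 8.40%. Repeat arrays of the same 2i-derived sample differed by at most 1.37-fold for any member, and 0 of the 17653 probes were 4-fold apart on them.

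**Figure D1:**
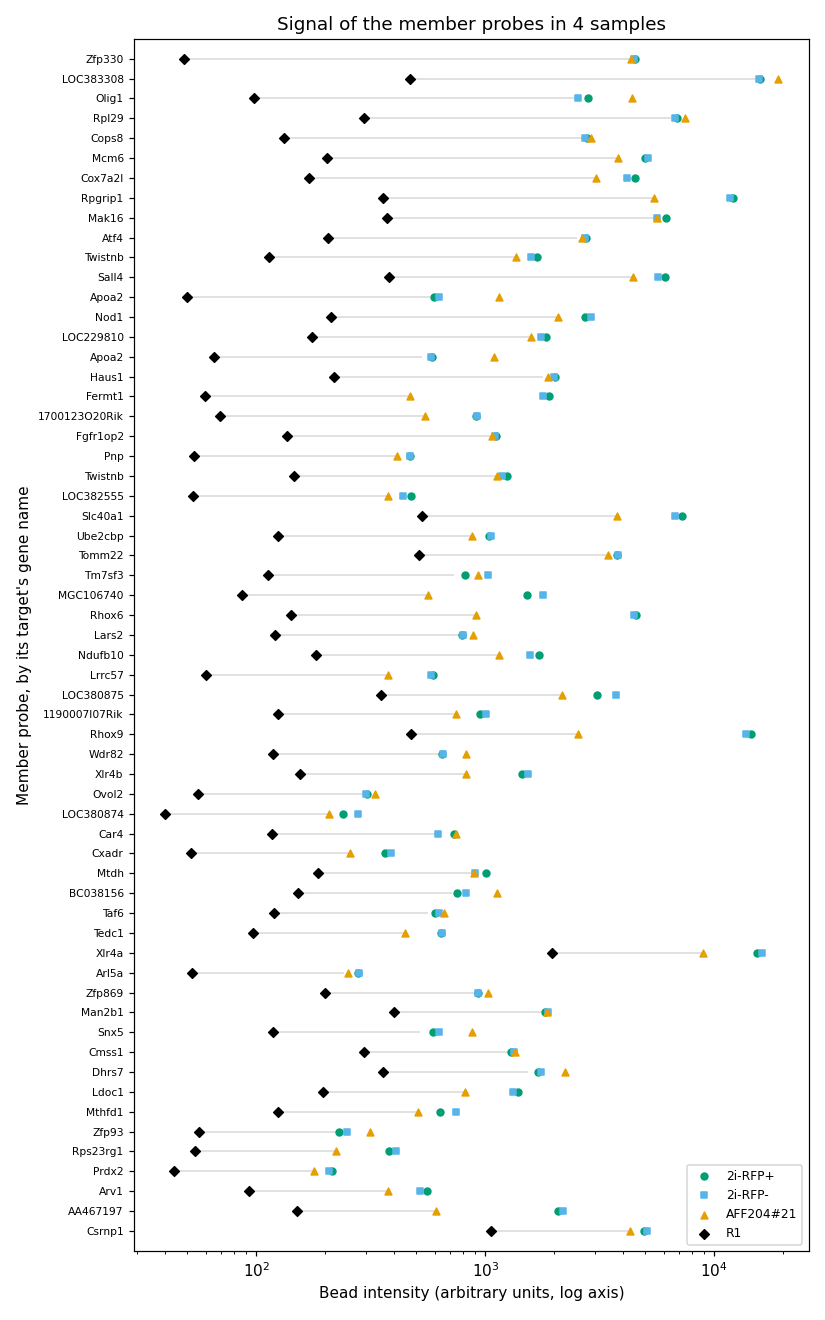
Bead intensity (log axis) of 60 of the member probes in each sample, sorted from the lowest ratio at the top, with the repeat arrays of each 2i-derived sample averaged. The grey line joins R1 (black diamond) to the lowest of the other 5 arrays; the gap runs from 89.4-fold for Zfp330 to 4.03-fold for Csrnp1, and for Rhox6, Rhox9, Fermt1 and AA467197 the AFF204#21 triangle stands apart from the 2i-derived samples.

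The same rule with AFF204#21 in the place of R1 found 1 of 17410 probes (0.00574%), filed under a RIKEN clone, with 302.5 and 309.8 in the 2i-derived samples, 59.3 in AFF204#21 and 264.6 in R1. In the opposite direction, 39 of the 19612 probes detected on R1 (0.199%) were at least 4 times brighter there than on any other array. Of these, 15 were detected on all 5 other arrays, and 19 of the 39 targets matched no current gene. These 3 sets are descriptions, since each was chosen on the values it shows.

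**Figure D2:**
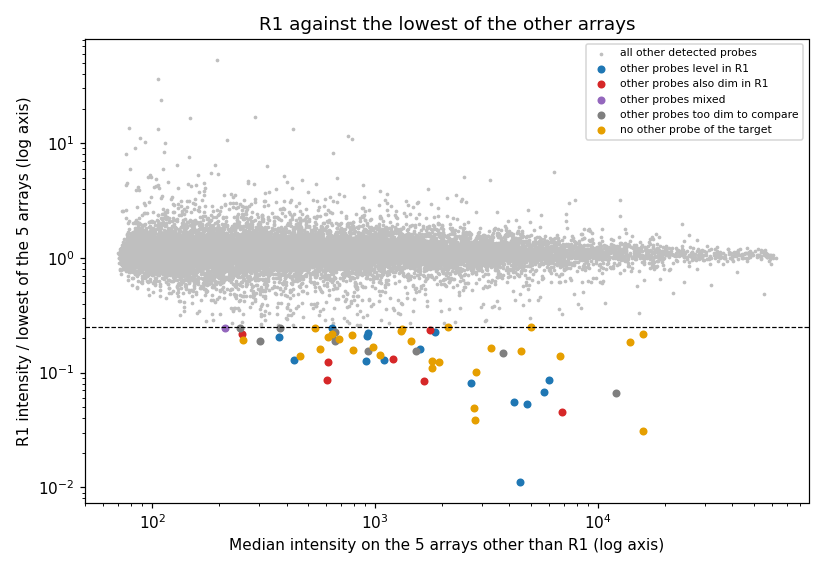
R1 intensity divided by the lowest of the other 5 arrays (vertical log axis) against the median intensity on those 5 arrays (horizontal log axis) for 17653 detected probes. The dashed line is the rule's limit of 0.25; members are coloured by what the other probes of their target did, and Zfp330 lies lowest at 0.0112.

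Among the targets that could be checked, most had another probe that was not dim in R1. The 59 targets had 59 probes that were not members. Of these, 24 were not detected on the other arrays, 9 were detected but under the level needed to show a 4-fold drop, and 26 could be compared. A comparable probe is called level where its R1 signal was above 0.5 times the lowest other array, and dim otherwise. With that limit, 16 targets had level other probes only, 5 had dim other probes only (counting the second member probes of Apoa2 and Twistnb), and 1, Prdx2, had both kinds. For 9 targets the other probes could not be compared, and 28 had no other probe. Of the 26 comparable probes 5 were dim (19.2%), against 157 of 10593 such probes outside the member targets (1.48%). Their median ratio to the lowest other array was 0.95, against 1.11 outside the member targets. These ratios use the same contrast as the rule and carry no test.

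Zfp330, which encodes a zinc finger protein, had the widest gap between its probes. Its member probe gave 4520 in 2i-RFP+, 4445 in 2i-RFP-, 4326 in AFF204#21 and 48.4 ± 2.8 (bead SE, 44 beads) in R1. All 3 C57/B6 samples were alike and R1 was at the level of undetected probes. After background correction and quantile normalization the C57/B6 mean was 12.10 ± 0.0033 log2 units (SD, n = 3), at least 120-fold above R1. Here and below, 2 of these 3 samples carry the same cell line label, 2i derived ES, and are means of 2 arrays. The SD may therefore understate the spread between independent C57/B6 lines. The other Zfp330 probe had a ratio of 1.07, with 2667 in R1 and a median of 2665 on the other arrays.

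Further targets with level other probes include the following. Mcm6, a subunit of the helicase that opens replication origins, gave 4966, 5124, 3797 and 204.1 in 2i-RFP+, 2i-RFP-, AFF204#21 and R1 on its member probe. Its 2 other bright probes had ratios of 0.95 and 1.05, so R1 was low on the member probe alone of these 3. Mak16 (RBM13 in the file), needed to make the large ribosomal subunit, gave 6161, 5610, 5595 and 372.8, while its other probes had ratios of 1.33 and 1.52 and were brightest in R1. Pnp, purine nucleoside phosphorylase, gave 467.1, 467.6, 412.7 and 53.5, the last not detected, whereas its bright probe read 7262 in R1 against a median of 5491. Mthfd1, a folate enzyme of one-carbon metabolism, gave 636.3, 747.3, 510.1 and 123.8, with an other-probe ratio of 1.06.

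A pair of mitochondrial genes belonged to the same group. Cox7a2l, an assembly factor of respiratory supercomplexes of which C57BL/6 and 129 mice are known to carry different coding alleles, gave 4492, 4172, 3045 and 169.4 in 2i-RFP+, 2i-RFP-, AFF204#21 and R1. Its other probe had a ratio of 0.851, with 2927 in R1. Ndufb10, a subunit of respiratory complex I, gave 1709, 1566, 1149 and 182.8, and its other probe had a ratio of 1.62. Both genes thus had 1 probe that was low in R1 alone and 1 that was not.

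Sall4, a zinc finger factor of the pluripotency network and the 1 member among the 10 core pluripotency genes, gave 6074, 5690, 4425 and 378.0 on its member probe. Its brightest probe gave 10040 in R1 with a ratio of 1.09, so the Sall4 probes did not rank R1 alike. Atf4, the main transcription factor of the integrated stress response, gave 2760, 2715, 2631 and 204.6. Its other probe was lower in R1 too, though less so, at 5738 with a ratio of 0.667, and it counts as dim where the limit is moved from 0.5 to 0.667. Taf6, a subunit of the general factor TFIID, gave 601.2, 626.3, 662.9 and 118.9, with a ratio of 0.95 for its other probe. That probe had a lowest signal of 191.7 on the other arrays, barely over the level for comparison. Zfp869 (1200003I07RIK in the file), a zinc finger gene, had a member ratio of 0.222 and other-probe ratios of 0.598 and 0.662, which also count as dim under the stricter limit.

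The remaining targets with level other probes were of mixed function. Man2b1, the lysosomal alpha-mannosidase, gave 1827, 1883, 1860 and 397.1 on its member probe and had an other-probe ratio of 1.39. Cxadr, a cell adhesion protein that coxsackie and adenoviruses use as a receptor, had a member ratio of 0.203 and an other-probe ratio of 1.22. Mtdh (2610103J23RIK in the file) had a member ratio of 0.210 and other-probe ratios of 0.938 and 1.03. Fgfr1op2 had ratios of 0.128 and 0.919, and the clone 1700123O20Rik of 0.127 and 0.892. In each of these 5 the member probe alone was under the limit.

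In 5 targets every comparable probe was dim in R1. Twistnb, a subunit of RNA polymerase I, which transcribes ribosomal RNA, had no probe outside the rule. One of its probes gave 1680, 1580, 1356 and 113.8 in 2i-RFP+, 2i-RFP-, AFF204#21 and R1, and the other 1241, 1178, 1123 and 146.5. R1 lay 17.6-fold and 9.57-fold below the mean of the 3 C57/B6 samples after normalization, and those 3 samples had an SD of 0.14 and 0.06 log2 units. Apoa2, an apolipoprotein of high-density lipoprotein, had 599.2, 624.8, 1142 and 49.9 on one probe and 582.2, 577.0, 1093 and 65.0 on the other. Neither Apoa2 probe was detected in R1, which lay at least 19.6-fold and at least 18.5-fold below the C57/B6 mean, and AFF204#21 was the brightest sample on both.

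Dhrs7, a short-chain dehydrogenase, had 3 detected probes, all low in R1. Its member probe gave 1690, 1746, 2227 and 357.6 (ratio 0.234), and its 2 other probes had ratios of 0.288 and 0.333, just above the rule's limit. Arl5a (2810410P22RIK in the file), a small GTPase, had a member ratio of 0.219 and ratios of 0.322 and 0.341 on its other probes, whose median intensities on the other arrays were only 255.7 and 230.3. Rpl29, a protein of the large ribosomal subunit, was less clear. Its member probe gave 6838, 6718, 7440 and 294.2, and its brighter probe had 10208.5 in R1 and a ratio of 0.498, just under the limit of 0.5. Rpl29 passed to the level group under quantile normalization, under median scaling and with a limit of 0.333. Ribosomal protein genes have many near-identical processed copies, so such a probe may also take up signal from the copies. Prdx2, a peroxidase of the cytosol, gave 213.3, 207.9, 178.9 and 43.6 on its member probe, while its other probes had ratios of 0.345 and, on a probe with a median of 17544, 0.959.

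The promoters of both targets with 2 member probes are shown because every probe of these genes was low in R1. They are C57BL/6J sequences from RefSeq, build GRCm38.p6, from 250 bases before to 50 after the annotated start, and the 129 sequence was not used here. Capitals mark CCAAT boxes on either strand, so ATTGG is a CCAAT on the opposite strand. Of 32851 promoters of this length 37.4% hold CCAAT and 13.6% hold TATAAA, the other motif searched, which neither of these has.
Twistnb, plus strand, chr12:33429374-33429673: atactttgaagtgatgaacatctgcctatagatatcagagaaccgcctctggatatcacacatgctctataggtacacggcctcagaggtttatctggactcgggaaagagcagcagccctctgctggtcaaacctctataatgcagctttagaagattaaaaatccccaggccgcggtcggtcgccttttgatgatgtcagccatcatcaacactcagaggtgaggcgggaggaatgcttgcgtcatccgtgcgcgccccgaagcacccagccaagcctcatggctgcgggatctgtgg
Apoa2, plus strand, chr1:171221314-171221613: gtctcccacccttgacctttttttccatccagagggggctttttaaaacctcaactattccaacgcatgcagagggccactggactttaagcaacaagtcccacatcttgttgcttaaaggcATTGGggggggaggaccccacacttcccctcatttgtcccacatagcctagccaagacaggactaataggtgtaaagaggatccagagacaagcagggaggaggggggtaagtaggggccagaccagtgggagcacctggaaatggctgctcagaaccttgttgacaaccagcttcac
The Twistnb window holds 14 CpG dinucleotides and no CCAAT, and the Apoa2 window 1 CpG and 1 CCAAT, against a median of 7 CpG over all promoters. A motif match is a description of these letters only.

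Among the 28 targets with no other probe were several of the strongest differences. The clone LOC383308 gave 15770, 15649, 18947 and 469.0 in 2i-RFP+, 2i-RFP-, AFF204#21 and R1. Olig1, a transcription factor of the oligodendrocyte lineage, gave 2798, 2527, 4367 and 97.7, and R1 was 46.2-fold below the C57/B6 mean of 11.60 ± 0.45 log2 units (SD, n = 3). Cops8, a subunit of the COP9 signalosome, gave 2793, 2717, 2882 and 131.5, and the 3 C57/B6 samples lay close together at 11.43 ± 0.08. Nod1 (CARD4 in the file), an intracellular sensor of bacterial peptidoglycan, gave 2735, 2879, 2072 and 211.7, and Slc40a1, the iron exporter ferroportin, 7198, 6709, 3756 and 527.6. For none of these can 1 probe show whether the whole transcript was lower.

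Other targets without another probe stood between 4.03-fold and 9.03-fold under the lowest other array. They were Haus1 (CCDC5 in the file, 8.14-fold), a subunit of the augmin complex of the spindle, Lars2 (6.39-fold), the mitochondrial leucyl-tRNA synthetase, Ube2cbp (7.03-fold), Lrrc57 (6.26-fold), 1190007I07Rik (5.98-fold), Car4 (5.13-fold), a carbonic anhydrase, Tedc1 (4.63-fold), Cmss1 (4.37-fold) and Arv1 (4.06-fold), which acts in sterol transport. The 4 targets LOC229810, LOC382555, LOC380875 and LOC380874 (9.03, 7.12, 6.14 and 5.19-fold) and BC038156 (4.73-fold) matched no current gene. Csrnp1 (AXUD1 in the file), a nuclear protein, was the member closest to the limit, with 4929, 5099, 4275 and 1060.5.

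Through the annotation, 2 more genes gained a comparable probe filed under another target name. Ovol2 (ZFP339 in the file), a zinc finger factor of epithelia, had a member ratio of 0.189 and a dim neighbour probe of 0.326, but 0.744 on the probe filed as OVOL2, which was bright enough to compare and level. Arv1 had 0.496 on the probe filed as 1110067L22RIK, just under the limit. By gene instead of target name the counts were 17 level, 6 dim and 1 mixed.

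For 9 targets the other probes were undetected or too dim. Rpgrip1, a protein of the photoreceptor cilium, had a member probe with 12086, 11659, 5442 and 358.4, while its 7 other probes were not detected, with medians of 44.0 to 65.6 on the other arrays. The bright signal was thus not shared by any other Rpgrip1 probe. Tomm22, a receptor of the mitochondrial import pore, gave 3744, 3791, 3438 and 514.2 on its member probe, and its dim other probe had a ratio of 0.802. Snx5, a sorting nexin, had 0.228 and a dim other probe at 0.50, Wdr82 (9430077D24RIK in the file), of histone methyltransferase complexes, 0.187 against 1.26 and 1.34, and Tm7sf3 0.153 against 1.01. Zfp93, the retrogene Rps23rg1 (C330021F23RIK in the file) and MGC106740 had ratios of 0.243, 0.244 and 0.155 with no other probe detected. Of the 3 targets filed under Zfp names, Zfp330 had a level other probe, and Zfp93 and ZFP339 had no comparable probe under the same target name.

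The choice of members also used the C57/B6 samples, through their detection scores and their lowest array. That array was AFF204#21 for 35 of the 61 members (57.4%), against 39.9% of all detected probes. The comparison of these samples is thus a description and carries no test. The largest difference between the 2i-derived samples was 1.26-fold over the 61 members. The same value was not computed over all detected probes, so it does not set the members apart. AFF204#21 was at most 0.5 times the 2i-derived mean for 6 of 61 members (9.84%), against 1.43% of all 17653 probes. It was at least 2 times that mean for 0 members, against 0.787%. The 17653 include 6974 probes under the level needed to show a 4-fold drop, so they are dimmer as a set. The 6 members were Rhox9, Rhox6, Fermt1, AA467197, MGC106740 and Rpgrip1, with ratios of 0.180, 0.202, 0.256, 0.284, 0.340 and 0.458. They are named by their values, and none has a comparable other probe. In the 16 targets with level other probes the ratio of AFF204#21 to the 2i-derived mean ran from 0.592 to 1.11 with a median of 0.912. Among the 28 targets with no other probe it ran from 0.180 to 1.64 with a median of 0.782.

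The spread over the 3 C57/B6 samples is given by class beside it. R1 still bears on it, since R1 was normalized together with these samples and its ratios set the classes. The median SD was 0.098 log2 units for members with level other probes, 0.14 for those with dim ones, 0.28 for those with no other probe and 0.27 where the other probes could not be compared. It was 0.15 over all detected probes. No test was made between classes, since the members were picked on values from these samples.

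**Figure D3:**
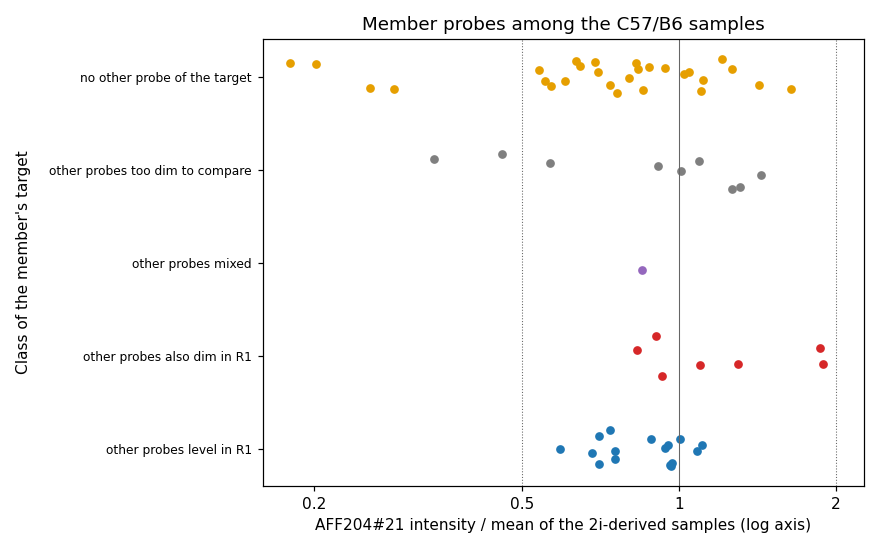
AFF204#21 intensity divided by the mean of the 2i-derived samples (log axis) for each member probe, by class of its target; dotted lines mark 0.5 and 2 and points are spread vertically only to be visible. The 6 points under 0.5 belong to targets without a comparable other probe, and the 16 with level other probes lie between 0.592 and 1.11.

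The X-linked homeobox genes Rhox6 and Rhox9 (PSX1 and PSX2 in the file), expressed in placenta and germ cells, stood in 3 steps. Rhox6 gave 4545 in 2i-RFP+, 4455 in 2i-RFP-, 906.8 in AFF204#21 and 141.1 in R1. Rhox9 gave 14516, 13780, 2545 and 474.8. For both, AFF204#21 lay between the 2i-derived samples and R1. Of the 12 genes listed for this cluster 5 were detected, and these 2 were the members. Rhox5 gave 33341, 31350, 15689 and 9041 in the same order of samples, with a ratio of 0.576 that lies outside the rule, while Rhox10 and Rhox13 had ratios of 4.15 and 2.84 and were brightest in R1. Rhox2a, which was not detected on all 5 arrays, gave 521.9, 538.3, 63.6 and 83.6, low in both AFF204#21 and R1. The genes of the cluster thus did not all rank R1 lowest. Only 2 protein-coding genes lie between them in the annotation. Fermt1 (5830467P10RIK in the file), kindlin-1, which links integrins to the cytoskeleton of epithelia, showed the same order with 1895, 1785, 470.2 and 59.6, and AA467197 with 2075, 2190, 606.1 and 150.1.

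5 of the 52 placed targets were X-linked (9.62%), against 3.43% of the placed targets with a detected probe. Beside Rhox6 and Rhox9 they were Ldoc1, derived from a retrotransposon gene, and the pair Xlr4a and Xlr4b (XLR4 in the file). Xlr4a gave 15402, 16156, 8969 and 1958, and Xlr4b 1439, 1529, 822.2 and 154.5, in 2i-RFP+, 2i-RFP-, AFF204#21 and R1. Ldoc1 gave 1391, 1316, 817.7 and 196.2. X-linked probes as a whole stood lower in both standard-derived lines: over 529 of them the median ratio to the 2i-derived mean was 0.668 in AFF204#21 and 0.664 in R1, against 0.963 and 0.970 over all detected probes. AFF204#21 ratios of the 5 X-linked members ran from 0.180 to 0.604. Of the 5 sex marker genes listed, 3 were detected on the 5 arrays, and they separated the same samples. Xist, the RNA that coats an inactive X chromosome, had 466.1, 440.0, 130.2 and 133.2 on its brightest probe in 2i-RFP+, 2i-RFP-, AFF204#21 and R1. The Y-linked Eif2s3y had 112.0, 99.2, 1290 and 2111, and the Y-linked Ddx3y 682.0, 640.0, 1421 and 3020. The other Y-linked genes, Uty and Kdm5d, were not detected on all 5 arrays. Xist was thus highest in the 2i-derived samples and the Y-linked pair in R1 and AFF204#21, and their part in the values of the X-linked members was not tested.

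Xlr4a and Xlr4b have near-identical promoters, which are shown to make that visible. The windows are C57BL/6J sequence from RefSeq, build GRCm38.p6, with the CCAAT box in capitals.
Xlr4a, minus strand, chrX:73082458-73082757: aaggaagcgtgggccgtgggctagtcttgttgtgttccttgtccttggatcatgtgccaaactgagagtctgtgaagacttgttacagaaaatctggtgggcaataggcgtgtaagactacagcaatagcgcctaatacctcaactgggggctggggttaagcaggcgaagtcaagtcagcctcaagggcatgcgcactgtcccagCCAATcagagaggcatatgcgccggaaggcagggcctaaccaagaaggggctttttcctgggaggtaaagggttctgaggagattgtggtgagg
Xlr4b, plus strand, chrX:73214083-73214382: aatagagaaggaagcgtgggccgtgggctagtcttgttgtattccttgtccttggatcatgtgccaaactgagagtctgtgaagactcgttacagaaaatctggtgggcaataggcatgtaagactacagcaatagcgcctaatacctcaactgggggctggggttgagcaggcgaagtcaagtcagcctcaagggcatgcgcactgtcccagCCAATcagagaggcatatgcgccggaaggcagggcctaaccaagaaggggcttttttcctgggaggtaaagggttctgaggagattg
In a local alignment 288 of 293 columns were identical, with 4 mismatches and 1 gap, and each window holds 1 CCAAT and 8 CpG. Of each window 250 bases lie before the start, and no probe or transcript sequence was compared. Whether the probes tell Xlr4a and Xlr4b apart was thus not tested, and both values may describe the same RNA. The other probe filed as XLR4B was not detected.

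The placed targets lay on 15 autosomes and the X chromosome. As a share of the targets with a detected probe, members were most frequent on the X chromosome (5 of 381, 1.31%), chromosome 8 (7 of 596, 1.17%) and chromosome 12 (4 of 380, 1.05%). Chromosome 2 also held 7, of 885 targets (0.791%), and chromosomes 3, 4, 13 and 19 held none. Over all placed targets with a detected probe the count was 52 of 11100. Differences between chromosomes rest on a few targets each and were not tested. Fgfr1op2 and Tm7sf3, on chromosome 6, were the 1 pair of direct neighbours among protein-coding genes. Fgfr1op2 had ratios of 0.128 on its member probe and 0.919 on its comparable other probe, whose median on the other arrays was only 242.4. Tm7sf3 had 0.153 and, on a dim probe, 1.01. Snx5 and Ovol2 on chromosome 2 had 1 gene between them. A list of 4 genes with known differences between C57BL/6 and 129 strains, Nnt, Casp4, Disc1 and Gas5, held no member, and 3 of the 4 had no probe detected on the 5 arrays. Casp4 gave 118.05, 113.25, 96.2 and 104.3 on its brightest probe in 2i-RFP+, 2i-RFP-, AFF204#21 and R1. That is under the level of 190.0 needed to show a 4-fold drop, so this list could hardly have held a member. Cox7a2l, described above, is a member and was not on that list.

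A target-level table hides part of this pattern. The authors' deposited table gives 1 log2 value per target and sample, which differed by at most 5.06e-06 log2 units from the mean over probes of quantile-normalized log2 intensity computed here. In the authors' deposited table the median of R1 minus the lowest other sample was -1.01 log2 units for targets with level other probes, whereas their member probes had a median of -2.96. It was -2.74 against -3.52 for targets with dim other probes, and -2.55 against -2.60 for those with no other probe, where both describe 1 probe. Zfp330 stood at -3.21 in the authors' deposited table and Mcm6, averaged over 4 probes, at -1.02. Rpgrip1, averaged over 8 probes, stood at -0.46, although its member probe had -3.92. Of the 59 targets there, 33 kept a difference of -2 or lower, and 12 lay above -1. The 59 include the 28 targets with no other probe, whose value is not averaged over probes. Most of the 33 are of that kind.

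**Figure D4:**
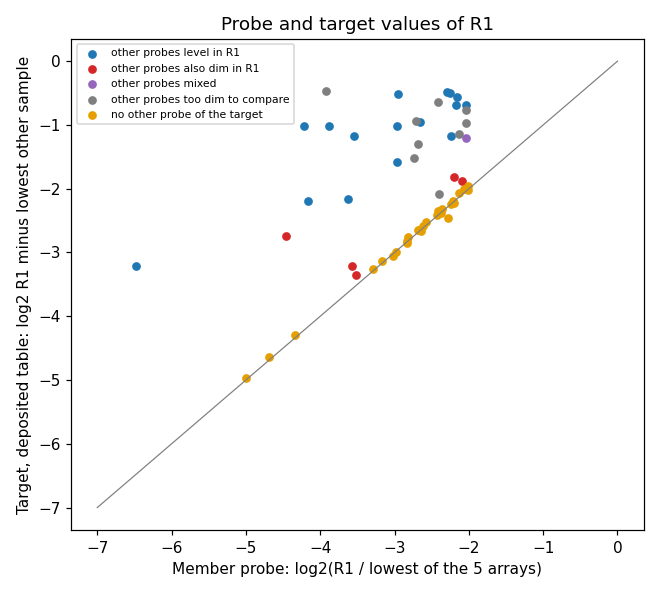
R1 minus the lowest other sample per target in the authors' deposited log2 table (vertical axis, log2 units) against the log2 ratio of the member probe (horizontal axis, the lower of 2 for Apoa2 and Twistnb). Targets with no other probe lie along the grey line of equal values, and targets with level other probes lie above it, at a median of -1.01.

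The values near the rule's limit ran on without a gap. Just inside lay Arv1, AA467197 and Csrnp1, with ratios of 0.247, 0.248 and 0.248. Just outside lay Tmem254a (D14ERTD449E in the file), Atp2c1 and Nppb, with 0.252, 0.257 and 0.258.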

How the data were processed

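RNA of 4 mouse embryonic stem cell samples was measured on 6 bead arrays. The deposited bead intensity averages the beads of a probe on 1 array and is linear; GenomeStudio 1.0.6 wrote it without normalization, per the file headers. The deposited bead SD and number of beads per probe (22 to 69 for members) gave bead standard errors. The deposited detection score, a fraction from 0 to 1, rises with signal, per the file headers and values. The authors' deposited log2 table has 1 row per target, and no source used here gives its method. Quantile normalization of the 6 arrays, followed by means over repeat arrays and probes, gave its values for 31458 targets within 5.06e-06 log2 units. Its column medians were 5.91, 5.91, 5.91 and 5.92.

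The rule was applied to intensities as deposited. Folds against the mean of the 3 C57/B6 samples used neqc of limma 3.58.1 (R 4.3.3, offset 16), with repeat arrays averaged. For a probe undetected in R1, such a fold is at least N-fold, against the higher of its own value and the lowest detected R1 value. R1 background is the median R1 signal of undetected probes, and a comparable probe reached 4 times it on the lowest other array. Per array 42.3% to 43.9% of probes were detected, and median intensities were 59.3 to 63.2. With 1 array of R1, its precision is known only within the array. Symbols, chromosomes and gene order come from RefSeq GRCm38.p6. No source used here gives the array's build, so genes have no coordinates.

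Named members follow a rule on ratio, brightness, class, lists, neighbours and name families, and the others are named to account for the members. One member counts in every total but is not reported here by name or plotted by sample. Members, lists and the rule were chosen with earlier results of these data known. No p-value is given, because the members were chosen by the R1 contrast and R1 is 1 array. Of 52 genes with an identifier, 40 had a promoter sequence.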

Additional observations from a re-analysis of the deposited data

How the results depend on the processing

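The count of member probes moved by over 1.5 times under some settings. Subtraction of each array's background gave 169 probes (39 targets with level and 20 with dim other probes), all 61 members among them. Taking a similar background off R1 and off a brighter array lowers their ratio, so this overlap is no separate check of the members. All 61 also passed after neqc, which corrects for background too. With neqc there were 98 probes and a median ratio of comparable other probes of 1.044. Quantile normalization kept 58 and median scaling 60 of the 61. By construction the count was 109 with a limit of 0.333 (9 dim targets), 17 with 1 in 8 (6 level, 3 dim) and 119 with the median of the 5 arrays as reference (14 dim). Leaving out 1 sample, which can only add member probes, gave 62 to 110 probes. It gave 16 to 18 level targets and 5 to 13 dim targets, the highest counts being those without AFF204#21. With a limit of 0.333 for other probes 3 targets were dim, as Rpl29 became level and Dhrs7 left the group. Where other probes had to reach 8 times the R1 background, 13 targets were level and 4 dim. Taf6, Fgfr1op2 and Zfp869 then left the level group and Arl5a the dim group. Probes dimmer in AFF204#21 numbered 5 after background subtraction and 2 after neqc, and probes brighter in R1 numbered 117 and 72. The causes of these shifts were not tested beyond the settings themselves. The other alternatives run kept each count within 1.5 times. No paired analysis was possible because the labels give no replicate numbers and R1 is 1 sample.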
